A study of Homo sapiens with 6 samples.

Results

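N4BP2 and FAM198B are 2 genes of the 30017 in the count table, chosen as clearly lowered in CTCF-depleted cells at 96 h against control cells at 96 h, 1 of them stable and the other raised when the cells convert from B cells to macrophages. Because these libraries chose them, their levels and fold changes are given as a description, without a p-value. The cells were BLaER1 cells, a human B cell leukemia line that converts into induced macrophages (iMacs) when the transcription factor C/EBPα is activated. All 6 libraries came from 1 subclone, BLaER1-CTCF-mAID, in which the architectural protein CTCF is fused to an auxin-inducible degron. There were 3 groups with 2 biological replicates each: cells before differentiation (0 h), cells 96 h after induction without auxin (96 h control), and cells at 96 h in which the auxin IAA was given from the time of induction (96 h CTCF-depleted). Total RNA depleted of ribosomal RNA was sequenced, and library totals ranged from 9273470 to 12718780 counts. No line without the degron was treated with IAA here, so that an effect of IAA itself and of the loss of CTCF cannot be told apart. In bulk RNA, fewer cells that express a gene and less RNA per cell cannot be told apart either.

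CTCF binds DNA and stalls the cohesin ring as it extrudes chromatin loops, and it thereby helps to set which enhancers and promoters meet. N4BP2 (NEDD4-binding protein 2, also known as BCL3-binding protein) carries a kinase domain for nucleic acid ends and a Smr nuclease domain, and its relatives in yeast and worm cut messenger RNA at stalled ribosomes. FAM198B, now named GASK1B, encodes a Golgi-associated membrane glycoprotein related to the four-jointed kinases of the secretory pathway.

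The labels of the groups were compared with cell type markers. Summed over 12 B cell markers, the level was between 3470 and 3510 CPM (the count scaled to library size with TMM factors) at 0 h, between 433 and 442 CPM in control iMacs and between 445 and 457 CPM in CTCF-depleted iMacs. Summed over 12 macrophage markers, it was between 56.3 and 61.4 CPM at 0 h, between 5340 and 5590 CPM in control iMacs and between 5290 and 5330 CPM after CTCF depletion. The sum of 6 granulocyte markers ranged from 0.722 to 1.35 CPM at 0 h, from 52.9 to 58.2 CPM in control iMacs and from 43.8 to 47.4 CPM after CTCF depletion. All 5 of these markers that were tested rose through conversion, and FCGR3B was at 0 in every library. The sum of 6 T cell markers stayed at or below 5.44 CPM, with CD3D and CD3G at 0 in every library. At 96 h most of that sum was CD2, which had 0 counts at 0 h, 40 and 38 in control and 54 and 55 in CTCF-depleted iMacs. The sum of 5 erythroid markers did not exceed 0.0921 CPM. Whether these differences in marker levels have a part in the results on N4BP2 and FAM198B was not tested.

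N4BP2 (ENSG00000078177.15) is a gene of 101.5 kb on the plus strand of chr4:40056797-40158252 in hg38, with 5 transcripts and 10053 exonic bases in GENCODE release 44. Its span also holds 2 processed pseudogenes on the minus strand and 2 small RNA genes on its own strand. The sequence before its start is shown because it is the promoter of the gene that was stable through conversion. It comes from RefSeq (GRCh38.p14, plus strand, chr4:40056600-40056804) and stops short of the RefSeq start, and its capitals mark the only match to the core letters of the CTCF motif:

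N4BP2 promoter: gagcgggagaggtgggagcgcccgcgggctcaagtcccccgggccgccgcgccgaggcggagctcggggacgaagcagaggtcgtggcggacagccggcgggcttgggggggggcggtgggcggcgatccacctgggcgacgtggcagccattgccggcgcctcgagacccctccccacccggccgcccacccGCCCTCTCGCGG

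In the 250 bases before the RefSeq start, GC content was 79.2%, with 36 CpG dinucleotides. Of 35116 RefSeq promoters of that length, 95.8% had a lower GC content and 95.1% had fewer CpGs. The motif match lies on the minus strand at positions -57 to -46 from the RefSeq start, and the GENCODE transcript that begins farthest upstream starts within it. The core searched (CC, 3 free bases, AG, 2 free bases and GGC, on both strands) occurred in 8.9% of all promoters. A match to letters is not evidence of binding.

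FAM198B (ENSG00000164125.16) is a gene of 48.8 kb on the minus strand of chr4:158124474-158173318, with 9 transcripts and 7880 exonic bases, and both genes therefore lie on chromosome 4, on different arms. The long noncoding gene GASK1B-AS1 overlaps FAM198B on the plus strand. Since the strand setting of the counting is not given in the sources used here, reads of that antisense gene cannot be told apart from those of FAM198B. RefSeq lists 2 start sites. Ahead of the first, the 250 bases had a GC content of 45.6% and 3 CpGs, against medians of 58% and 11 over all promoters. Ahead of the second, GC content was 32.4% with 2 CpGs. The only searched letters found in these windows were 2 copies of the CCAAT box, which 32% of promoters hold, and they are shown with their flanks (minus strand, capitals mark the box):

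FAM198B CCAAT box at chr4:158173100-158173119: cacccaggCCAATccctaac

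FAM198B CCAAT box at chr4:158173069-158173088: aaaaacctCCAATcagagag

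These boxes lie at positions -86 to -82 and -55 to -51 from the first RefSeq start, and a GENCODE transcript begins upstream of both. None of the windows of either gene held the searched letters of a C/EBP site (TTGCNNAA, 9.05% of promoters), a PU.1 site (GAGGAAGT, 2.17%) or a TATA box (TATAAA, 10.7%), and the CTCF core was not found ahead of FAM198B. In base composition, the 2 promoters thus stood on opposite sides of the median.

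N4BP2 was as abundant in the starting B cells as in control iMacs and was present at 33.9% of the control level in CTCF-depleted iMacs. Its counts were 1377 and 2224 at 0 h, 1697 and 1728 in control iMacs, and 535 and 601 in CTCF-depleted iMacs. Scaled to library size, these are 142 and 167 CPM, 150.0 and 160 CPM, and 49.5 and 55.4 CPM. The 0 h and control libraries overlapped, whereas both CTCF-depleted libraries lay below every other library, and the higher of them reached 0.37 of the lower control library. Nothing is read from the lack of overlap, since N4BP2 was chosen on its fall and the share of all genes without overlap was not counted. Mean levels were 154 ± 17.5 CPM at 0 h, 155 ± 7.25 CPM in control iMacs and 52.5 ± 4.12 CPM after CTCF depletion (SD, n = 2 each). The log2 fold change was -1.56 (SE 0.07) for CTCF-depleted against control iMacs. For control iMacs against 0 h it was -0.00 (SE 0.06), the 22nd smallest absolute change through conversion among the 14758 genes tested. That rank is a description only, since N4BP2 was chosen as stable through conversion. It is not firmly set either, as leaving out a library gave changes of -0.12 to 0.08. CTCF-depleted iMacs against 0 h gave -1.56 (SE 0.07), a contrast in which 25.2% of tested genes were called lower and 27.2% higher. These 3 comparisons share libraries and are not independent of each other.

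FAM198B was nearly absent from the starting B cells, rose to the level of N4BP2 in control iMacs, and rose to 33.7% of the control level in CTCF-depleted iMacs. It had 4 and 10 counts at 0 h, 1805 and 1706 in control iMacs, and 580 and 578 in CTCF-depleted iMacs. These correspond to 0.413 and 0.750 CPM at 0 h, to 159 and 158 CPM with CTCF, and to 53.7 and 53.2 CPM without it. No groups overlapped, and the 2 replicates at 96 h differed by little in either condition. FAM198B was also chosen on these libraries, and the share of all genes without overlap was not counted, so nothing is read from the lack of overlap. Group means were 0.581 ± 0.239 CPM at 0 h, 159 ± 0.93 CPM in control iMacs and 53.5 ± 0.324 CPM after CTCF depletion (SD, n = 2 each). The 14 counts at 0 h have an exact Poisson interval of 7.65 to 23.5 (95%, counting error only), so that folds against 0 h are loosely set. Conversion with CTCF gave a log2 fold change of 8.0 (SE 0.15), in a contrast where 25.4% of genes were called higher. It ranked 215th from the highest of 14758, a description only, since FAM198B was chosen as raised. Conversion under CTCF depletion gave 6.43 (SE 0.17). Both SEs were derived from the F statistic and understate the counting error of the 14 counts at 0 h. Leaving out a library gave 7.70 to 8.51 with CTCF and 6.16 to 6.97 under depletion. At 96 h, CTCF-depleted against control iMacs differed by -1.57 (SE 0.07). Counted from the 0 h level, the gain was 158 CPM in control iMacs, against 52.9 CPM in CTCF-depleted iMacs, or 33.5% of the control gain (33.6% and 33.3% for the single CTCF-depleted libraries, each set against the mean control gain).

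**Figure D1:**
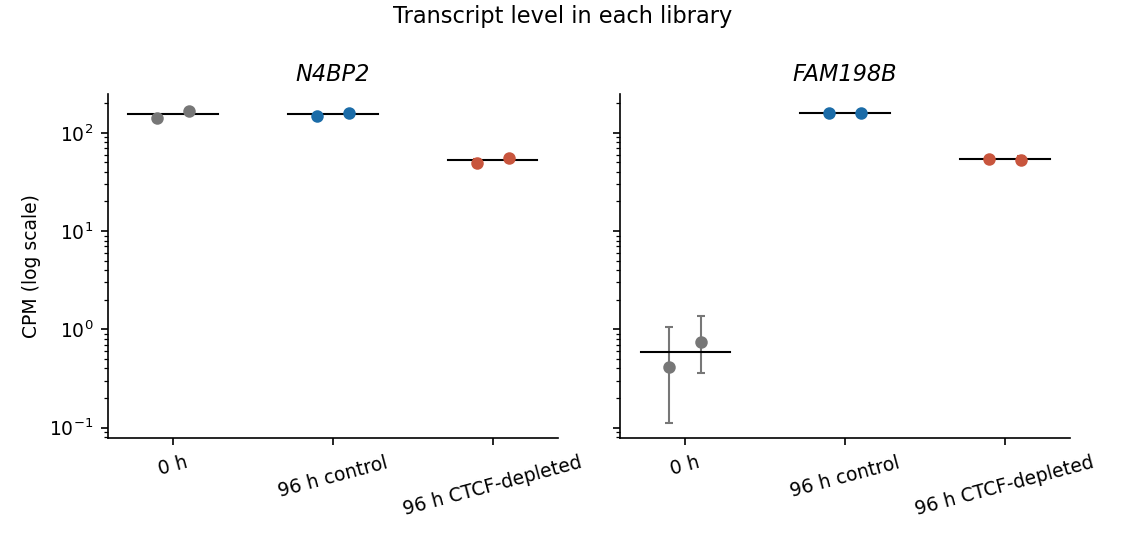
Transcript level of N4BP2 (left) and FAM198B (right) in each library, in CPM on a log scale, for cells at 0 h (grey), control iMacs (blue) and CTCF-depleted iMacs (red); lines mark group means and bars at 0 h for FAM198B the 95% counting interval. N4BP2 lies between 142 and 167 CPM in the 4 libraries at 0 h and in control and at 49.5 and 55.4 CPM in CTCF-depleted libraries, while FAM198B goes from below 1 CPM to 158 and 159 CPM in control iMacs, against to 53.2 and 53.7 CPM in CTCF-depleted libraries.

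In both conditions at 96 h the genes were close in level. Per kilobase of exon, N4BP2 measured 15.4 ± 0.721 CPM and FAM198B 20.1 ± 0.118 CPM in control iMacs, against 5.22 ± 0.41 and 6.79 ± 0.0411 CPM in CTCF-depleted iMacs (SD, n = 2 each). At 0 h the levels per kilobase were 15.4 ± 1.74 CPM for N4BP2 and 0.0738 CPM for FAM198B. N4BP2 stood above 91.1% of tested genes at 0 h, 89.8% in control and 70.3% in CTCF-depleted iMacs, ranked by CPM. FAM198B stood above 6.97%, 90.1% and 70.7%. Both genes therefore remained above the median tested gene, which was at 22.1 CPM in CTCF-depleted iMacs.

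Both genes passed the thresholds used for differential expression (adjusted p below 0.01 in edgeR and an absolute log2 fold change above 0.6), as did 7.03% of the 14758 genes tested in the lower direction. Since this contrast chose them, nothing is read from that. Sorted by log2 fold change, FAM198B was the 246th and N4BP2 the 248th lowest of all genes tested. The genes directly beside them were STXBP5-AS1 (-1.57, from 1.81 to 0.601 CPM), UBE3D (-1.56, from 3.16 to 1.06 CPM) and CEBPD (-1.56, from 38.6 to 13.1 CPM). STXBP5-AS1 is a long noncoding RNA, UBE3D a ubiquitin ligase and CEBPD a transcription factor of the C/EBP family. Most genes that fell as far were less abundant. Of 139 genes that were called lower with a control level of at least 100 CPM, FAM198B had the 3rd and N4BP2 the 4th lowest log2 fold change. Among all 1038 genes called lower they were 160th and 162nd. That cutoff lies below the control levels of both members, which this contrast chose, so these ranks are a description only.

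The genes around each locus were examined next, selected by position among the genes that passed the count filter. RBM47, TMEM144 and RXFP1 had 0 counts at 0 h, so they passed only through their counts at 96 h. Within 1 Mb of N4BP2, 56 genes were annotated, 18 were matched in the count table and 13 were tested. After CTCF depletion 1 of them was lower, 2 were higher and 10 were not called, against 7.03% lower and 5.41% higher (12.4% in either direction) among all genes tested. The median log2 fold change of the 13 was -0.06, beside -0.03 for all genes. RHOH, an atypical GTPase of blood cells, is the nearest tested gene downstream at 32.8 kb from the end of N4BP2. It moved opposite to N4BP2, with 425 and 371 counts in control and 846 and 829 in CTCF-depleted libraries. Its level rose from 35.9 ± 2.23 to 77.4 ± 1.39 CPM (log2 fold change 1.10, SE 0.08, edgeR adjusted p = 9.69e-18). Like N4BP2, RHOH differed little between 0 h and control iMacs (32.7 and 35.9 CPM). APBB2, an adaptor that binds the amyloid precursor protein, lies 651.8 kb downstream. It rose from 57.7 ± 4.71 to 150 ± 5.31 CPM (log2 fold change 1.38, SE 0.07, edgeR adjusted p = 4.65e-25), having been at 130 CPM at 0 h.

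RBM47, an RNA-binding protein 265 kb downstream of N4BP2, was the neighbor that fell. It had 0 counts in both libraries at 0 h, 96 and 69 in control and 33 and 46 in CTCF-depleted iMacs. The level went from 7.43 ± 1.47 to 3.65 ± 0.836 CPM (log2 fold change -1.03, SE 0.25, edgeR adjusted p = 5.52e-04). With DESeq2 this call was lost (adjusted p = 0.0594), and so it was without replicate 1 of control or of CTCF-depleted cells, over a range of adjusted p from 7.78e-05 to 0.0736 in the alternatives. On the upstream side, the nearest tested gene was PDS5A, which encodes a regulator of cohesin, at 78.8 kb. Its level was 382 ± 2.58 CPM in control iMacs, against 445 ± 15.1 CPM in CTCF-depleted iMacs, and its log2 fold change of 0.22 (SE 0.05, edgeR adjusted p = 7.57e-05) was below the fold threshold.

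Within 1 Mb of FAM198B, 42 genes were annotated and 12 were matched in the count table. The 7 that were tested all lie at higher coordinates, that is, on the side of its start site. Of these 7, 1 was lower, 3 were higher and 3 were not called after CTCF depletion. Among all genes tested, 7.03% were lower and 5.41% higher. The median log2 fold change of the 7 was 0.66, beside -0.03 for all genes. TMEM144, a multi-pass membrane protein, starts 28.3 kb from FAM198B and is transcribed away from it. It was silent at 0 h, with 0 counts in both libraries, and had 29 and 30 counts in control and 13 and 10 in CTCF-depleted iMacs. Its difference of -1.32 (SE 0.40, edgeR adjusted p = 0.00684) rests on few counts: DESeq2 did not call it (adjusted p = 0.176), nor did any fit that left out 1 library. The next gene, RXFP1, a receptor for relaxin, had 8 and 13 counts in control and 16 and 18 in CTCF-depleted iMacs and did not pass (log2 fold change 0.72, SE 0.47, edgeR adjusted p = 0.234).

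The 3 genes that rose near FAM198B form a row that begins 493.4 kb away. ETFDH, a mitochondrial electron transfer enzyme, had 300 and 283 counts in control and 706 and 714 in CTCF-depleted iMacs. It rose from 26.3 ± 0.19 to 65.6 ± 0.285 CPM (log2 fold change 1.32, SE 0.08, edgeR adjusted p = 2.32e-20), having been at 27.2 CPM at 0 h. C4orf46 rose from 32.2 ± 2.12 to 51.0 ± 0.338 CPM (log2 fold change 0.66, SE 0.08, edgeR adjusted p = 2.88e-09). PPID, a cyclophilin that works with HSP90, rose from 27.4 ± 0.486 to 44.9 ± 3.04 CPM (log2 fold change 0.71, SE 0.09, edgeR adjusted p = 1.02e-09). ETFDH overlaps both C4orf46 and PPID at its ends on the opposite strand, so that some reads of these genes may have been assigned to the wrong one. In a narrower window of 0.5 Mb, 6 genes were tested around N4BP2 (1 lower, 1 higher) and 4 around FAM198B (1 lower, 2 higher). The shares over all genes tested were again 7.03% lower and 5.41% higher.

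**Figure D2:**
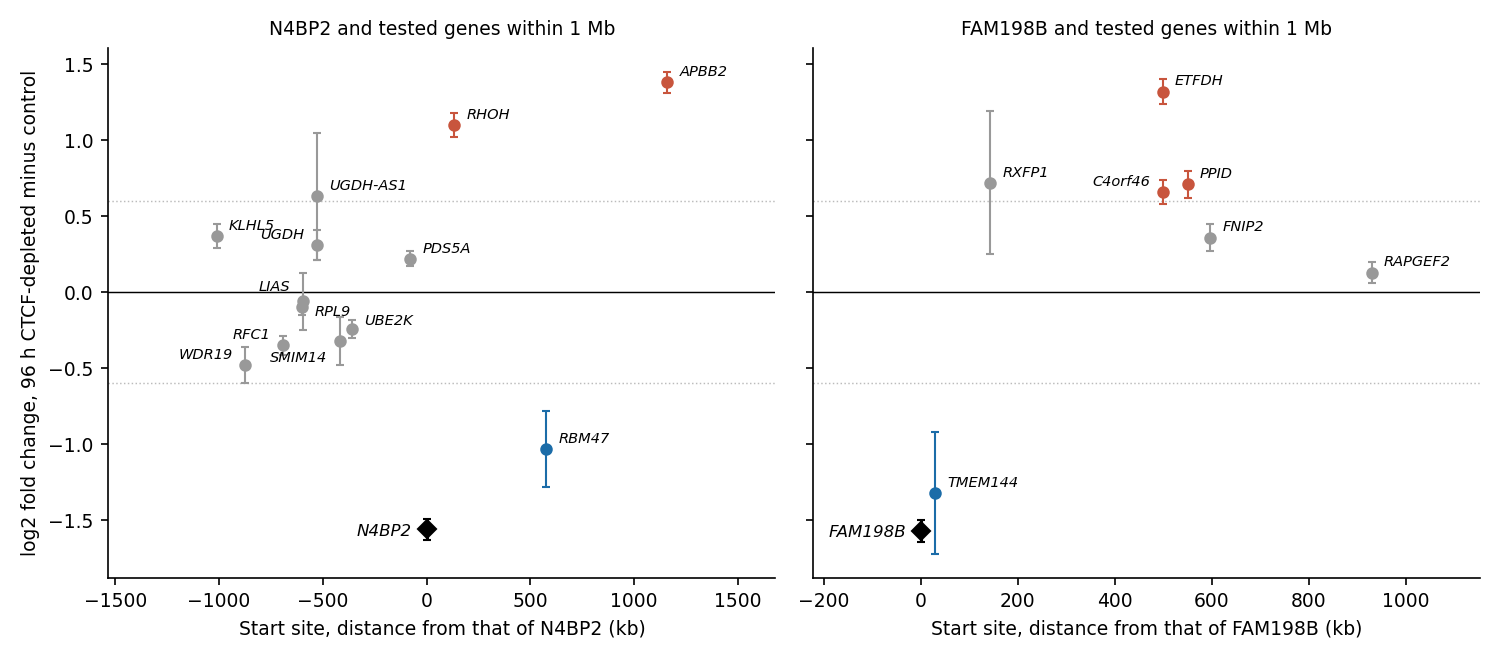
Log2 fold change of CTCF-depleted against control iMacs (bars, SE) for N4BP2 (left) and FAM198B (right, both black diamonds) and every tested gene within 1 Mb, plotted by the distance in kb between start sites, with called genes in red (higher) and blue (lower) and dotted lines at the fold threshold of 0.6. RHOH, at 1.10, lies beside N4BP2, at -1.56, whereas ETFDH, C4orf46 and PPID, between 0.66 and 1.32, lie as a row on the start side of FAM198B, at -1.57.

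The 5 genes with the pattern nearest to each member across the 6 libraries were found by the Euclidean distance between log2 CPM values centred on the mean of each gene. For N4BP2 they were CAP2, EXT2, EFCAB4B, UBE3D and EPDR1, at distances from 0.251 to 0.355, where the median gene lay at 2.03. They are spread over chromosomes 6, 7, 11 and 12 and have different known roles: CAP2 binds actin, EXT2 builds heparan sulfate chains, EFCAB4B regulates calcium channels and EPDR1 is a lysosomal protein. EXT2 stood at 32.3 CPM at 0 h, 32.9 CPM in control iMacs and 10.4 CPM after CTCF depletion. For CAP2 the levels were 18.6, 17.9 and 6.97 CPM, and for EFCAB4B 78.6, 77.4 and 30.8 CPM. EPDR1 was at 17.1 CPM in control iMacs, against 6.92 CPM in CTCF-depleted iMacs. None of the 5 was as abundant as N4BP2.

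For FAM198B the nearest genes were BHLHE40, CD300E, SULF2, CD36 and KLF3, at distances from 0.573 to 0.829, where the median gene lay at 8.2. BHLHE40 and KLF3 encode transcription factors, CD300E an activating receptor of monocytes, SULF2 a sulfatase that edits heparan sulfate outside the cell, and CD36 a scavenger receptor for lipids. BHLHE40 went from 1.14 CPM at 0 h to 190 CPM in control iMacs and 76.2 CPM after CTCF depletion, and SULF2 from 0.52 to 123 and 39.0 CPM. CD300E and CD36 had 0 counts at 0 h and reached 43.2 and 47.3 CPM in control against 15.4 and 16.3 CPM in CTCF-depleted iMacs. KLF3 also lies on chromosome 4. It had 1 count in each 0 h library and was at 54.0 CPM in control iMacs, against 26.5 CPM in CTCF-depleted iMacs. For CD300E, CD36 and KLF3, log2 CPM at 0 h is set mostly by the prior of 2 counts. Their nearness to FAM198B at 0 h therefore reflects that floor. With each gene also scaled to the same spread, 1 of the 5 nearest genes was shared with the first measure for each member (CAP2 and BHLHE40), so that most of these names depend on the measure.

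**Figure D3:**
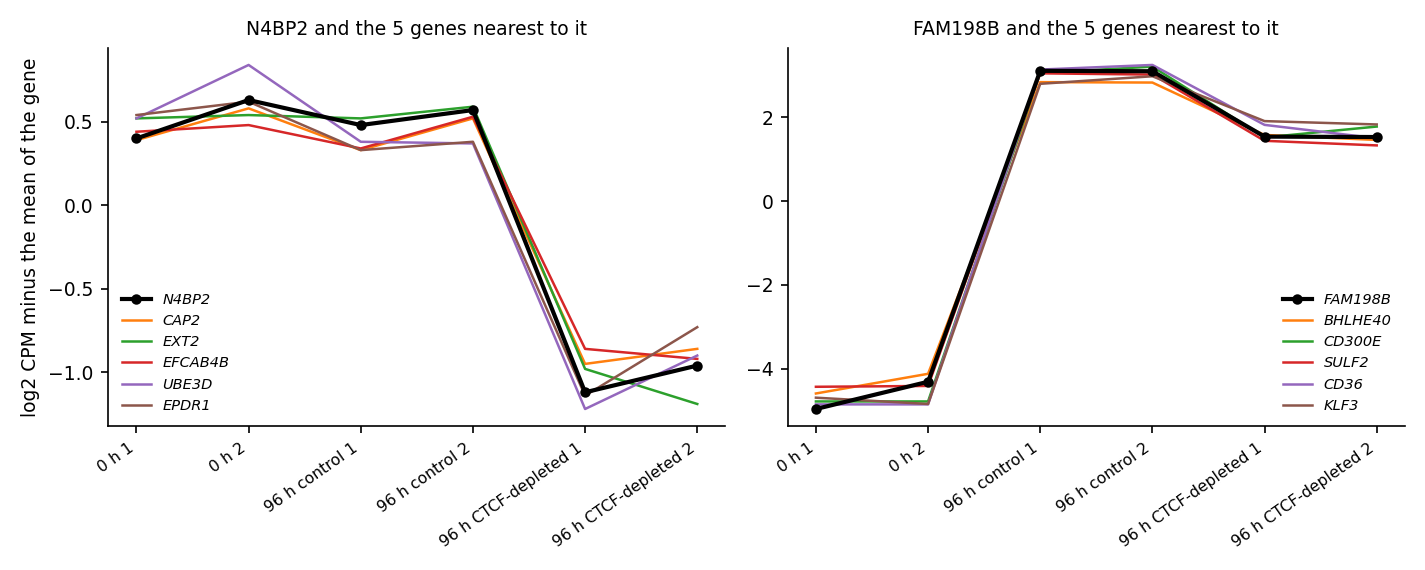
Log2 CPM of each library minus the mean of the gene over the 6 libraries, for N4BP2 (left) and FAM198B (right) in black and the 5 genes nearest to each in color; lines only join the points of a gene. The genes on the left differ little between 0 h and control, with UBE3D and EPDR1 somewhat higher at 0 h, and are lower in both CTCF-depleted libraries. Those on the right are lowest at 0 h, highest in control and in between in CTCF-depleted libraries.

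Genes tied to each member by family or function were then taken as lists. After CTCF depletion, 7.03% of all genes tested were called lower and 5.41% higher, with a median log2 fold change of -0.03. The counts of each list stand beside these shares, and no list was tested as a set. Among the other NEDD4-binding proteins, 4 were tested, and 1 was lower and 0 higher after CTCF depletion, with a median log2 fold change of -0.15. N4BP3, an adaptor that also binds NEDD4, had 241 and 209 counts in control and 48 and 51 in CTCF-depleted iMacs. It fell from 20.3 ± 1.35 to 4.57 ± 0.179 CPM (log2 fold change -2.15, SE 0.15, edgeR adjusted p = 1.12e-17), and, unlike N4BP2, it had already fallen through conversion from 31.0 CPM at 0 h (log2 fold change -0.61, SE 0.11, edgeR adjusted p = 1.97e-06). The closest paralogs of N4BP2 did not pass the thresholds: N4BP2L1 was at 23.6 CPM in control iMacs, against 20.2 CPM in CTCF-depleted iMacs (log2 fold change -0.22, SE 0.12), and N4BP2L2 at 138 and 166 CPM (log2 fold change 0.27, SE 0.06).

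Of 10 NEDD4 family ubiquitin ligases and adaptors tested, 1 was lower and 0 higher, with a median of 0.00. The gene that fell was NEDD4 itself, which marks membrane proteins with ubiquitin. It had 417 and 333 counts in control and 170 in each CTCF-depleted library, a change from 33.8 ± 4.22 to 15.7 ± 0.0567 CPM (log2 fold change -1.11, SE 0.11, edgeR adjusted p = 3.39e-13). Of 22 genes for sensing and rescue of stalled ribosomes, 1 was lower and 1 higher, with a median of -0.05. ZAK, the kinase that signals ribosome collisions, fell from 169 ± 0.628 to 69.4 ± 2.1 CPM (log2 fold change -1.28, SE 0.06, edgeR adjusted p = 5.76e-25), and a noncoding gene overlaps it on the opposite strand. PELO, which splits stalled ribosomes, rose from 8.0 ± 0.208 to 13.3 ± 0.409 CPM (log2 fold change 0.74, SE 0.16, edgeR adjusted p = 1.49e-04). DESeq2 did not call PELO (adjusted p = 0.0105), and the gene overlaps ITGA1 on the same strand. Among BCL3 and its partners, 1 of 5 was lower and 0 higher, with a median of 0.06. BCL3, an atypical IκB protein to which N4BP2 was found to bind, had risen from 6.27 to 87.7 ± 1.13 CPM through conversion and reached 47.2 ± 0.497 CPM in CTCF-depleted iMacs (log2 fold change -0.89, SE 0.07, edgeR adjusted p = 3.50e-15).

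Secretory pathway kinases, the relatives of FAM198B, moved in both directions. Of 9 tested, 2 were lower and 4 higher after CTCF depletion (7.03% of all genes were lower and 5.41% higher), with a median log2 fold change of 0.14. Through conversion, 2 were lower and 4 higher (22.9% of all genes were lower and 25.4% higher there). FAM20C, the main kinase of secreted proteins, was raised by conversion as FAM198B was, from 1.73 to 85.2 ± 0.424 CPM. Its level in CTCF-depleted iMacs, 174 ± 18.2 CPM, was higher still (log2 fold change 1.03, SE 0.07, edgeR adjusted p = 1.73e-18). FJX1, the human four-jointed homolog, was at 37.3 CPM at 0 h, 10.7 ± 1.04 CPM in control iMacs and 30.0 ± 1.07 CPM after CTCF depletion (log2 fold change 1.48, SE 0.12, edgeR adjusted p = 3.51e-16). C3orf58 rose from 39.0 ± 1.29 to 73.3 ± 6.93 CPM (log2 fold change 0.91, SE 0.08, edgeR adjusted p = 2.30e-14). The remaining kinase that was higher, PKDCC, is named after its values were seen. It had fallen through conversion from 79.4 CPM at 0 h to 3.17 ± 0.236 CPM in control iMacs. In CTCF-depleted iMacs it was at 6.42 ± 0.173 CPM (log2 fold change 1.02, SE 0.21, edgeR adjusted p = 6.24e-05). FAM69B fell from 77.0 ± 4.09 to 42.3 ± 0.283 CPM (log2 fold change -0.86, SE 0.08, edgeR adjusted p = 6.75e-14). The other kinase that was lower, FAM69A, is named after its values were seen, and it had few counts, 24 and 28 in control and 4 and 10 in CTCF-depleted iMacs. Its log2 fold change was -1.84 (SE 0.45, edgeR adjusted p = 6.94e-04), and its call was lost with DESeq2 (adjusted p = 0.0177), without replicate 2 of control and without replicate 1 of CTCF-depleted cells, over a range of adjusted p from 1.54e-04 to 0.0518 in the alternatives. FAM198A, the closest paralog of FAM198B, had at most 1 count in any library and was not tested. Of 16 genes of Golgi structure and Golgi enzymes, 1 was lower and 0 higher after CTCF depletion, with a median of 0.02, although 2 were lower and 8 higher through conversion. The enzyme that fell, MAN1A1, which trims mannose from glycoproteins, went from 13.7 ± 3.79 to 7.21 ± 0.94 CPM (log2 fold change -0.92, SE 0.18, edgeR adjusted p = 2.84e-05), and its call was lost without replicate 2 of control.

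**Figure D4:**
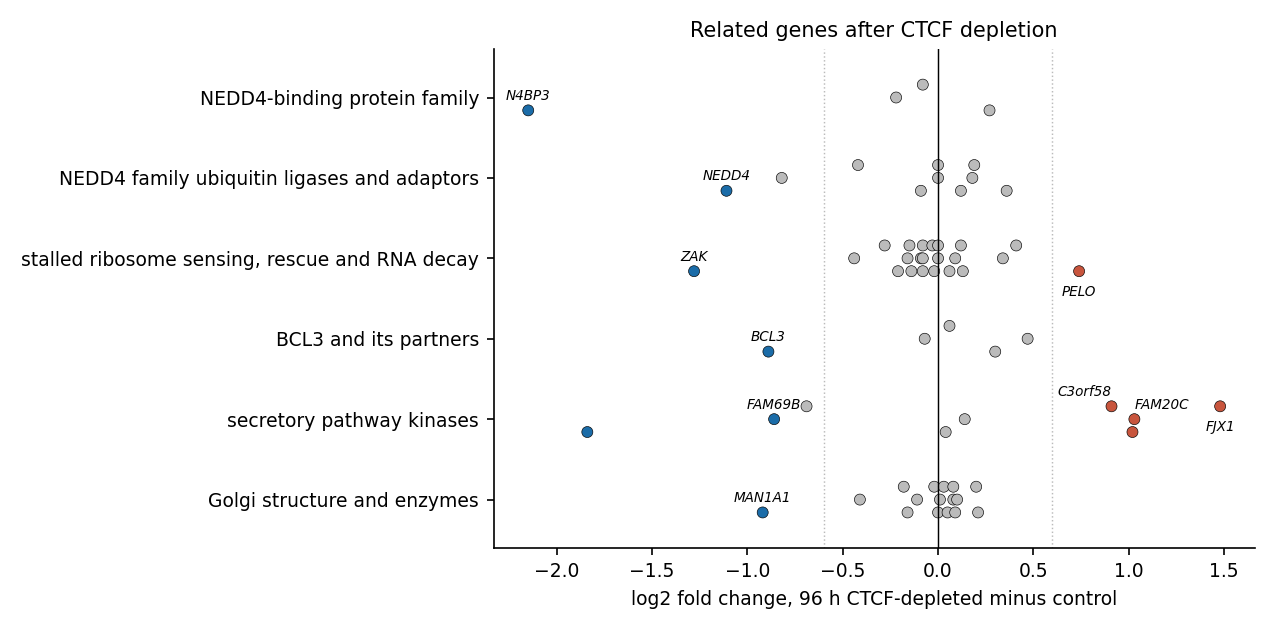
Log2 fold change of CTCF-depleted against control iMacs for every tested gene of 6 lists related to N4BP2 or FAM198B, 1 point a gene, in red (called higher), blue (called lower) or grey (not called), with up to 4 called genes named in each list and dotted lines at the fold threshold of 0.6. List medians lie between -0.15 and 0.14, and N4BP3, at -2.15, and FAM69A, the unnamed blue point at -1.84, lie below both members.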

How the data were processed

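The RNA-seq libraries numbered 6, with 2 biological replicates in each group of BLaER1-CTCF-mAID cells. The values are raw counts per gene, deposited by the authors, who used the nf-core/rnaseq pipeline with STAR 2.6.1d, hg38 and featureCounts 2.0.6. Their methods describe counting over protein-coding exons, but the table also lists noncoding genes such as STXBP5-AS1, so that this does not describe every row. The annotation release and strand setting are not given in the sources used here. N4BP2 and FAM198B, the gene lists and the tests were chosen with earlier results of these data known.

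edgeR 4.0.16 was run in R 4.3.3 on the 14758 genes that filterByExpr kept. One quasi-likelihood fit with TMM factors covered the 3 groups, and no covariate was used. Benjamini-Hochberg adjustment ran over all genes tested. A gene was called where its adjusted p was under 0.01 and its log2 fold change was over 0.6 in size. Each SE is the absolute log2 fold change divided by the square root of the F statistic of its test. Such an SE can be too small where a group has few counts. For log2 CPM, 2 counts were added as a prior. Common biological variation was 3.96%, so that the p-values measure the spread between replicates of 1 subclone. Positions were taken from GENCODE release 44, which matched 77.9% of symbols, and FAM198B was matched as GASK1B through its RefSeq synonym. Neighbors had a gene body within 1 Mb of that of the member. Protein sequences were not used here.

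Genes named are both members, the 5 nearest patterns to each, called or nearest neighbors, up to 4 called genes a list and the paralogs. The genes ranked directly beside the members are named too. FAM69A and PKDCC were added outside these rules. The alternatives were DESeq2 1.42.0, RLE scaling, library totals, other filters and thresholds, only the libraries compared, a replicate block and leaving out each library. Replicate numbers were not treated as pairs, since the deviations of same-numbered libraries had correlations of -0.0194, 0.0109 and -0.0294 across genes. Intervals of counts cover counting error only. With 2 libraries a group, outlying samples were not tested.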

Additional observations from a re-analysis of the deposited data

How the results depend on the processing

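N4BP2 and FAM198B were lower in CTCF-depleted than in control iMacs under every alternative that gave a value. For N4BP2, leaving out each library in turn gave -1.61 to -1.44 for this contrast, -0.12 to 0.08 for conversion, a sign that is not set by the data, and -1.64 to -1.45 for CTCF-depleted iMacs against 0 h. FAM198B could not be fitted with at least 10 counts in every library, since it had 4 and 10 at 0 h. Its replicates were so close that small shifts exceeded their spread: -1.56 with DESeq2 and with RLE scaling, -1.53 with library totals, -1.54 without a filter and with only the 4 libraries compared, and -1.54 to -1.53 when a library was left out. Its rise through conversion ranged from 7.70 to 8.51 and that of CTCF-depleted iMacs from 6.16 to 6.97 when a library was left out, the highest without replicate 2 of 0 h.

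At an adjusted p of 0.05 without a fold threshold, edgeR called 11112 of 14758 genes through conversion and 5705 after CTCF depletion (3330 lower, 2375 higher). After depletion, this threshold called 9 of 13 neighbors of N4BP2 (4 lower, 5 higher) and 5 of 7 of FAM198B (1 lower, 4 higher). With an absolute log2 fold change above 1, 845 of 14758 genes were called after depletion (436 lower, 409 higher). Among neighbors, 3 of 13 were called for N4BP2 and 2 of 7 for FAM198B. Nothing about the neighborhoods is read from these counts. Leaving out a library gave 1453 to 1836 genes after depletion, 2 to 3 neighbors of N4BP2 and 3 of FAM198B. The causes of these shifts were not tested. With the replicate number as a block, N4BP2 was at -1.56 and FAM198B at -1.57, with 3 and 4 neighbors called, and the block changed no call of these. Depth limits the genes with few counts, TMEM144, RXFP1 and RBM47 above all.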
